A study of Homo sapiens with 8 samples.

Results

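Transcripts of 44 human genes that act in G2 and mitosis were followed after knockdown of MEPCE, among 80311 genes counted in total RNA from U2OS osteosarcoma cells. The 44 were chosen by name and function, with earlier results of these data known. All 44 were present and passed the filter on low counts that left 43321 genes for testing. After siMePCE, 43 of the 44 were lower in the AsiSI line and 41 of the 44 in the Flp-In line, and none was higher in either.

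Entry into mitosis is driven by CDK1 bound to its B-type cyclins, which CDC25 phosphatases switch on. Most genes needed at this point are transcribed late in the cycle. Their promoters are held down in resting and G1 cells by the DREAM complex, and in G2 they are activated by MuvB together with B-MYB (the product of MYBL2) and by FOXM1. The proteins then build the spindle, attach chromosomes to it through kinetochores, hold back anaphase until attachment is complete, and separate the sister chromatids through the anaphase-promoting complex (APC/C). RNA of these genes is therefore abundant in dividing cells and low in resting or G1 cells.

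There were 4 groups of 2 libraries each. AsiSI siMePCE and AsiSI siNC were U2OS cells of the AiD-DiVA type carrying AsiSI-ER, a restriction enzyme fused to an estrogen receptor domain that 4-OHT brings into the nucleus, where it cuts DNA. Flp-In siMePCE and Flp-In siNC were U2OS-Flp-In-TREx cells. All cells received siRNA at 0 and 48 h, against MEPCE (siMePCE) or as a control (siNC), and were lysed at 96 h. AsiSI cells of both groups also received 300 nM 4-OHT for 4 h from 92 h, while 4-OHT is not stated for Flp-In, so that line and 4-OHT cannot be told apart. MEPCE encodes the enzyme that caps 7SK RNA, which holds back the elongation kinase P-TEFb. The sources used here do not say that replicates were separate cultures, so p-values measure the spread between these libraries, which may be technical.

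MEPCE itself was measured first. It had 162 and 102 counts in AsiSI siMePCE, against 1405 and 1542 in AsiSI siNC. In Flp-In it had 264 and 234 counts under siMePCE, against 1712 and 1676 under siNC. Every library thus matched the siRNA in its label, although an overlapping gene holds 1.08 times the counts of MEPCE. These counts cannot check the cell line or the treatment in the labels. Whether the siRNA also acted on other transcripts was not tested.

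Total counts per library ran from 41431776 to 53695626. Mitochondrial genes took 9.63% to 10.6% of counts in AsiSI siMePCE, against 5.89% to 5.91% in AsiSI siNC. They took 8.24% to 8.66% in Flp-In siMePCE, against 5.23% to 5.52% in Flp-In siNC, and with mitochondrial, 7SK, 7SL and ribosomal RNA genes left out, 43 members were again lower in AsiSI and 41 in Flp-In. The U2OS label was checked against mesenchymal genes, and VIM was at 611 to 1273 CPM (counts normalised to library size and scaled by TMM), SPARC at 268 to 483, FN1 at 50.1 to 348, COL1A1 at 24.6 to 111 and RUNX2 at 29.3 to 44.8 CPM. TWIST1 was at 0.562 to 9.29, ALPL at 0.284 to 1.30 and COL1A2 at 0.0483 to 0.818 CPM. The 8 mesenchymal genes summed to 1529 to 1635 CPM in AsiSI siMePCE, against 2006 to 2217 in AsiSI siNC. In Flp-In they summed to 993 to 1075 CPM under siMePCE, against 1489 to 1537 under siNC. Of 13 markers of epithelium, blood, endothelium and neurons, 12 were found. Their summed level was 69.9 to 73.7 CPM in AsiSI siMePCE, against 36.5 to 41.0 in AsiSI siNC. In Flp-In it was 48.0 to 49.5 CPM under siMePCE, against 35.4 to 36.7 under siNC. Most of it was SNAP25, at 20.3 to 43.3 CPM, while KRT19, CD3E and CD14 stayed below 0.22 CPM in every library. The part of these markers in the results was not tested.

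The upstream sequence of several members is shown first, because genes of this kind are known for 2 short promoter elements. The CHR element (TTTGAA or TTCGAA on either strand) is contacted by MuvB, and the CCAAT box (CCAAT, or ATTGG on the other strand) by NF-Y. Each line gives the 110 bases just before the start of the gene in RefSeq, in the GRCh38.p14 build, 5′ to 3′ on the strand of the gene, with CHR and CCAAT letters in capitals.
KIF20A: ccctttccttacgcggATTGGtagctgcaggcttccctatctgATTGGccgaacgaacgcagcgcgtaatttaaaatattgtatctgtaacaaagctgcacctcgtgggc
CDC20: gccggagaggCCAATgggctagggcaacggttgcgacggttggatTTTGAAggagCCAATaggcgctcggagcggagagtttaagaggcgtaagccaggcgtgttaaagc
HMMR: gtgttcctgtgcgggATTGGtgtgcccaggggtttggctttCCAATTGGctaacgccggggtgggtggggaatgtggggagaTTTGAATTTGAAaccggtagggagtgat
PLK1: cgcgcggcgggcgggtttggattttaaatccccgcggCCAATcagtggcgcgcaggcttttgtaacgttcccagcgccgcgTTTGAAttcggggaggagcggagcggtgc
CCNB2: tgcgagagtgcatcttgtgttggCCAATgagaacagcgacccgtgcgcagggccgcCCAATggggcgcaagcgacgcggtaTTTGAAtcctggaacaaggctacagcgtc
KIF4A: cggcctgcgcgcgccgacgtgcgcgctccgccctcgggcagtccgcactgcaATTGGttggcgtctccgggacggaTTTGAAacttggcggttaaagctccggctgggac
BUB1B: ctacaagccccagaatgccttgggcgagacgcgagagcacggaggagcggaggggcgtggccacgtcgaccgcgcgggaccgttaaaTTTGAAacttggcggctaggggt

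KIF20A (chr5:138179002-138179111, plus strand) was chosen as the member with the lowest fold change; its 110 bases hold 2 CCAAT boxes and no CHR letters. CDC20 (chr1:43358871-43358980, plus strand) and HMMR (chr5:163460522-163460631, plus strand) were also among the strongly lowered members, and HMMR carries 2 adjoining CHR matches and a pair of overlapping CCAAT matches. PLK1 (chr16:23678779-23678888, plus strand) and CCNB2 (chr15:59105036-59105145, plus strand) are shown as a mitotic kinase and a B-type cyclin, with log2 fold changes of -1.53 and -1.31 in AsiSI and -0.95 and -0.95 in Flp-In. KIF4A (chrX:70289994-70290103, plus strand) was 1 of the 2 members whose response differed between the lines, and BUB1B (chr15:40160959-40161068, plus strand) was among the least lowered, with CHR letters and no CCAAT box in these bases.

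RefSeq promoters (250 bases before to 50 after the start) were at hand for 38 of the 44 genes, in 48 promoters; AURKA, BIRC5, FOXM1, TPX2, TTK and UBE2C were not matched. CHR letters were in 33 of the 48 member promoters (68.8%) and in 16.4% of all 35116 promoters of that length. CCAAT letters were in 36 of the 48 (75%) and in 34.6% of all, and both were in 28 of the 48 (58.3%) and in 6.38% of all. These matches describe letters, not binding. The 30 genes with CHR letters had a median log2 fold change of -1.08 in AsiSI and -0.96 in Flp-In. The 8 without them had medians of -1.22 and -1.08, with no test between these sets.

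The members as a group are described by their share of all counts. They took 0.331% and 0.280% of counts in the 2 AsiSI siMePCE libraries, against 0.662% and 0.595% in AsiSI siNC. They took 0.363% and 0.335% in Flp-In siMePCE, against 0.678% and 0.656% in Flp-In siNC. No siMePCE library reached any siNC library, and replicate 2 was the lower of the 2 libraries in each group, siNC as well as siMePCE. In bulk RNA, fewer cells in G2 or mitosis and less RNA of these genes per cell cannot be told apart.

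Genes were called with edgeR's quasi-likelihood test at a Benjamini-Hochberg adjusted p under 0.05 over all 43321 genes. In AsiSI, 43 of the 44 members were called lower and 0 higher, where 21.4% of all genes tested were called lower and 16.8% higher. In Flp-In, 41 were called lower and 0 higher, where 22.8% of all genes were called lower and 18.1% higher. The members' median log2 fold change was -1.10 in AsiSI and -0.95 in Flp-In, beside 0.04 and 0.03 for all genes. Coding genes in the members' range of mean level (8496 genes) had medians of -0.18 in AsiSI and -0.07 in Flp-In, with 43.6% and 37.6% called lower. A fall of 2-fold or more was fitted for 29 members in AsiSI and 18 in Flp-In. Both siMePCE libraries lay under both siNC libraries for 43 members in AsiSI, beside 33.3% of all genes, and for 42 in Flp-In, beside 36.6% of all genes.

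No member was called higher by DESeq2 either, nor had any a rise at an unadjusted edgeR p under 0.05 (0 and 0 in each line).

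**Figure D1:**
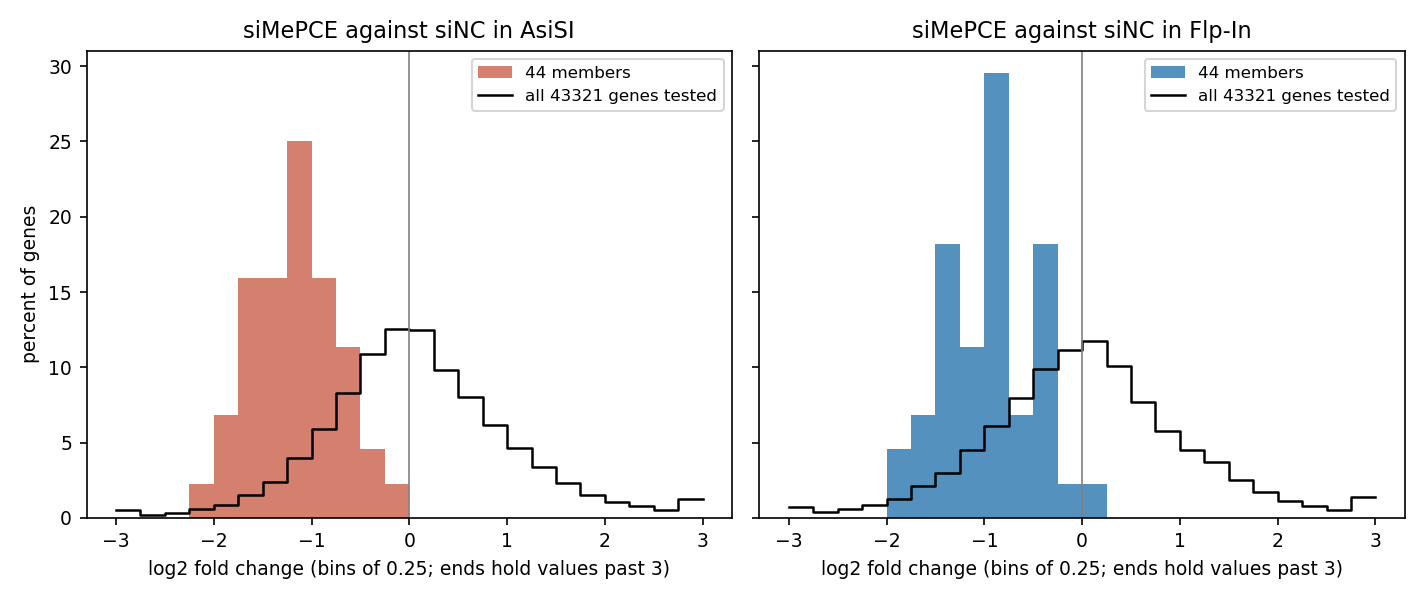
Percent of genes (y axis) by log2 fold change, siMePCE over siNC (x axis, bins of 0.25), in AsiSI and Flp-In, for the 44 members (bars) and all 43321 genes tested (line). The members' bars sit left of 0, apart from TTK in Flp-In at 0.01, around medians of -1.10 and -0.95, while all genes centre on 0.

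A gene nested inside another never had more counts than its host, on either strand, which leaves reads of overlapping genes impossible to assign. An overlapping gene held at least 0.1 times the counts of 18 members, among them FOXM1 (ITFG2, 0.535 times), KIF20A (CDC23, 0.796 times) and CCNA2 (EXOSC9, 0.731 times). The count ratio was at least 1 for BUB1, CDC25C, KIF23, NUSAP1 and PRC1. Of the other 26 members, 25 were called lower in AsiSI (median -1.10) and 23 in Flp-In (median -0.93).

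Both transcription factors among the members fell in both lines. FOXM1 (chromosome 12, 2966846 to 2986340, minus strand, hg19) is the forkhead factor that activates G2 genes and is itself one of them. It was at 113 and 99.2 CPM in AsiSI siMePCE, against 347 and 385 CPM in AsiSI siNC. In Flp-In it was at 183 and 151 CPM under siMePCE, against 400 and 414 CPM under siNC. The groups did not overlap in either line, and the AsiSI siMePCE libraries were the lowest. FOXM1 fell by 1.78 on the log2 scale in AsiSI (SE 0.0961, edgeR adjusted p = 3.5e-12) and by 1.29 in Flp-In (SE 0.0945, adjusted p = 3.65e-10). MYBL2, the partner of MuvB in S and G2, was at 38.1 and 31.1 CPM in AsiSI siMePCE, against 90.2 and 97.9 CPM in AsiSI siNC. It was at 50.4 and 46.2 CPM in Flp-In siMePCE, against 94.9 and 102 CPM in Flp-In siNC. MYBL2 fell by 1.44 in AsiSI (adjusted p = 2.3e-10) and by 1.03 in Flp-In (adjusted p = 3.19e-08), on the log2 scale.

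All 6 genes of the CDK1 switch fell in both lines, with median log2 fold changes of -1.08 in AsiSI and -0.88 in Flp-In. CDK1, the kinase itself, was at 67.2 and 59.0 CPM in AsiSI siMePCE, against 143 and 108 CPM in AsiSI siNC. It was at 73.7 and 65.9 CPM in Flp-In siMePCE, against 105 and 103 CPM in Flp-In siNC. CDK1 fell less in fold than the cyclin CCNB1, by 0.99 in AsiSI and 0.57 in Flp-In on the log2 scale, though the 2 genes were not tested against each other. CCNB1, the main mitotic cyclin, was at 139 and 116 CPM in AsiSI siMePCE, against 276 and 265 CPM in AsiSI siNC. It was at 112 and 89.5 CPM in Flp-In siMePCE, against 221 and 224 CPM in Flp-In siNC. Its log2 fold changes were -1.09 (edgeR adjusted p = 1.14e-08) in AsiSI and -1.14 (adjusted p = 5.66e-09) in Flp-In.

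CCNA2, the cyclin of S phase and G2, was at 49.2 and 45.2 CPM in AsiSI siMePCE, against 101 and 96.8 CPM in AsiSI siNC. It was at 92.6 and 76.1 CPM in Flp-In siMePCE, against 147 and 149 CPM in Flp-In siNC. Of the activating phosphatases, CDC25B (chromosome 20, 3767419 to 3786768, plus strand, hg19) had one of the largest falls of the 44. It was at 14.6 and 15.4 CPM in AsiSI siMePCE, against 54.1 and 57.9 CPM in AsiSI siNC. It was at 25.8 and 20.5 CPM in Flp-In siMePCE, against 86.1 and 87.1 CPM in Flp-In siNC, with a log2 fold change of -1.90 in each line (edgeR adjusted p = 1.29e-11 in AsiSI and 8.96e-12 in Flp-In). Its relative CDC25C changed less, with log2 fold changes of -0.64 in AsiSI and -0.48 in Flp-In. The Flp-In call of CDC25C was lost without Flp-In siMePCE replicate 2 (adjusted p = 0.184). CCNB2, the other B-type cyclin, fell by 1.31 in AsiSI and by 0.95 in Flp-In on the log2 scale.

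**Figure D2:**
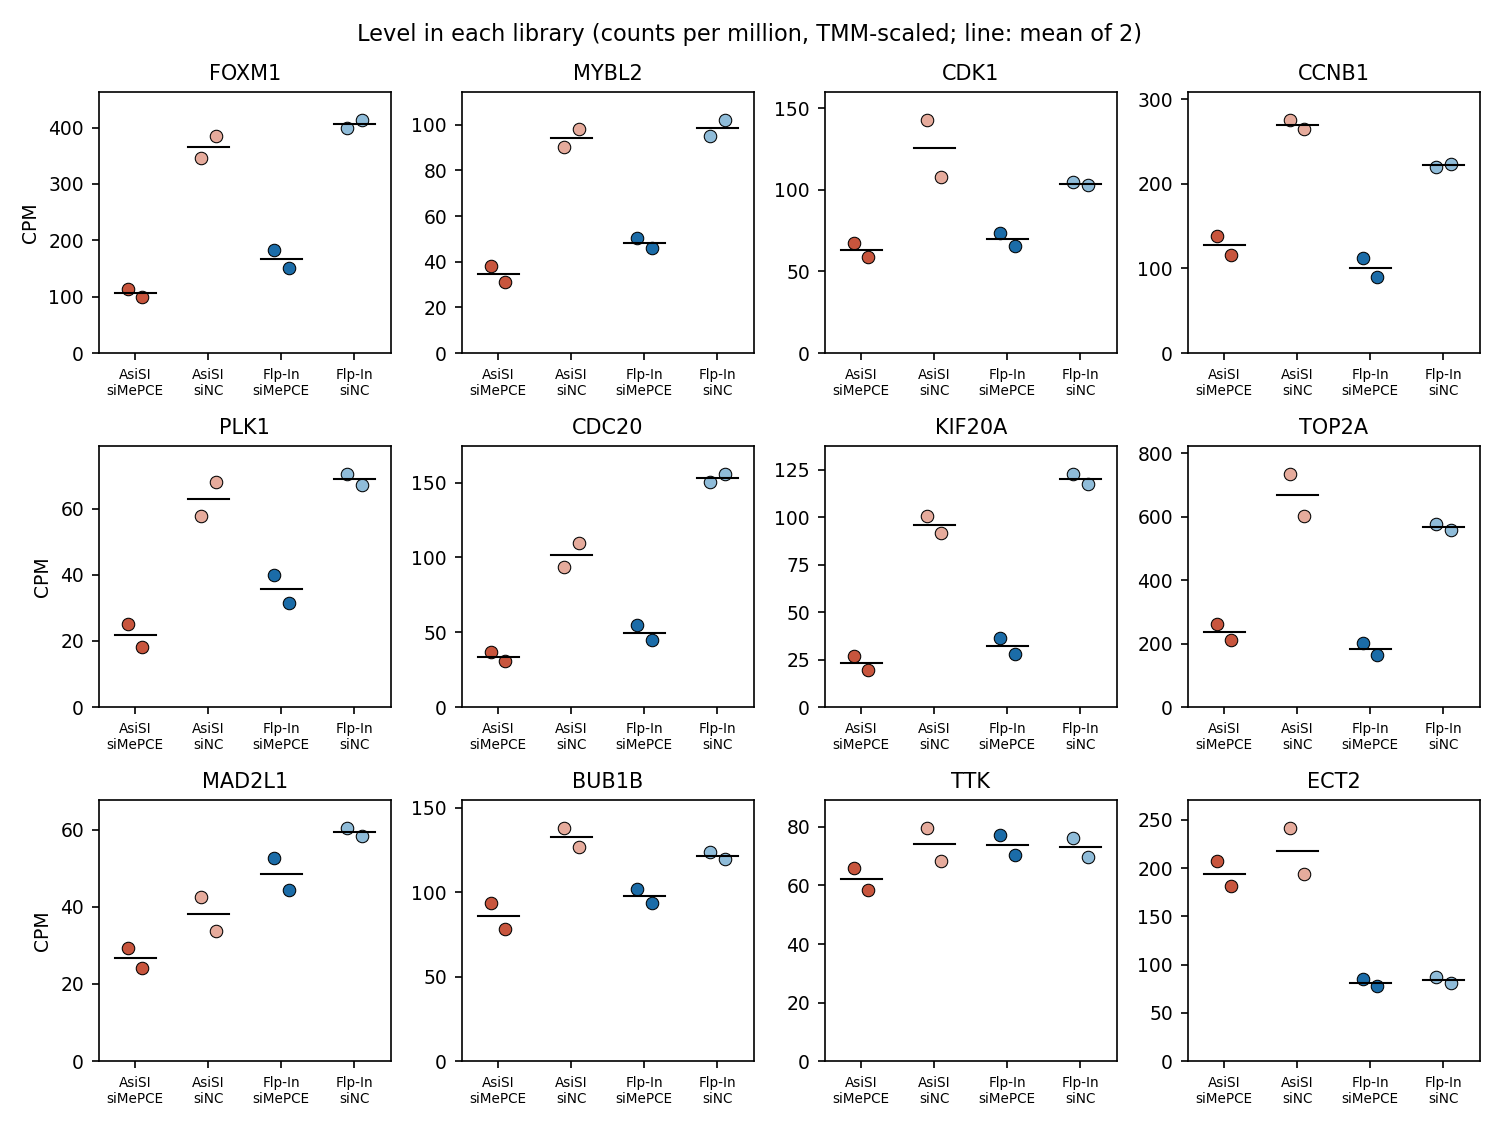
Level (CPM, y axis from 0) of 12 members in each of the 8 libraries (points) with the mean of each group (line). FOXM1, CDC20, KIF20A and TOP2A show siMePCE libraries well under siNC libraries in both lines, TTK stays between 58.3 and 79.7 CPM, and ECT2 is set apart by line, at 181 to 242 CPM in AsiSI and 77.4 to 87.5 CPM in Flp-In.

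The mitotic kinases and the passenger subunit BIRC5 fell in both lines, 4 of 4. PLK1, which acts in centrosome maturation, spindle assembly and cytokinesis, was at 25.3 and 18.2 CPM in AsiSI siMePCE, against 57.7 and 68.2 CPM in AsiSI siNC. It was at 40.0 and 31.4 CPM in Flp-In siMePCE, against 70.5 and 67.3 CPM in Flp-In siNC. AURKA, the spindle pole kinase, was at 46.6 and 33.3 CPM in AsiSI siMePCE, against 85.8 and 85.4 CPM in AsiSI siNC. The AsiSI siMePCE libraries were the lowest for both kinases, and no siMePCE library reached a siNC library of its line. AURKA was at 60.0 and 48.2 CPM in Flp-In siMePCE, against 101 and 100.1 CPM in Flp-In siNC. Its log2 fold changes were -1.10 (edgeR adjusted p = 2.7e-07) in AsiSI and -0.89 (adjusted p = 3.92e-06) in Flp-In, and those of PLK1 were -1.53 (adjusted p = 8.77e-09) and -0.95 (adjusted p = 5.22e-06). AURKB, the kinase of the chromosomal passenger complex, was at 6.89 and 4.64 CPM in AsiSI siMePCE, against 20.4 and 22.1 CPM in AsiSI siNC, a log2 fold change of -1.88 (adjusted p = 2.26e-09). In Flp-In AURKB was at 12.2 and 10.98 CPM under siMePCE, against 28.3 and 27.0 CPM under siNC, and its log2 fold change was -1.25 (adjusted p = 4.13e-07). BIRC5 (survivin), which places AURKB at centromeres and the midzone, fell by 1.11 in AsiSI and 0.92 in Flp-In on the log2 scale.

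The spindle checkpoint, which holds back anaphase, had the smallest changes of the role groups with 4 or more members, with medians of -0.52 in AsiSI and -0.30 in Flp-In. All 4 of its genes were called lower in AsiSI and 2 of 4 in Flp-In. TTK (MPS1), the kinase that starts checkpoint signalling at kinetochores (chromosome 6, 80713604 to 80752244, plus strand, hg19), was at 66.0 and 58.3 CPM in AsiSI siMePCE, against 79.7 and 68.5 CPM in AsiSI siNC. In Flp-In it was at 77.1 and 70.4 CPM under siMePCE, against 76.4 and 69.7 CPM under siNC. The Flp-In groups overlapped, and TTK had a log2 fold change of 0.01 there (SE 0.0988, edgeR adjusted p = 0.921). In AsiSI TTK had a log2 fold change of -0.25 (SE 0.099, adjusted p = 0.0484). That call was lost with DESeq2 (adjusted p = 0.0936), RLE size factors (0.0751), library totals (0.0641), a filter at a mean CPM of 1 (0.245) or a fit of only the libraries compared (0.0998), without AsiSI siMePCE replicate 2 (0.304), without AsiSI siNC replicate 1 (0.371), and without Flp-In siNC replicate 1 (0.0535) or 2 (0.0529).

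MAD2L1, which forms the diffusible checkpoint inhibitor, was at 29.4 and 24.0 CPM in AsiSI siMePCE, against 42.5 and 33.7 CPM in AsiSI siNC. It was at 52.5 and 44.4 CPM in Flp-In siMePCE, against 60.4 and 58.4 CPM in Flp-In siNC. Its siMePCE libraries lay under its siNC libraries in both lines, with log2 fold changes of -0.51 (edgeR adjusted p = 0.0018) in AsiSI and -0.29 (adjusted p = 0.0538) in Flp-In. The AsiSI call was lost without AsiSI siNC replicate 1 (adjusted p = 0.0503). The Flp-In value passed the threshold without Flp-In siMePCE replicate 1 (adjusted p = 0.0271) or any 1 of the 4 AsiSI libraries (0.0189 to 0.0319). BUB1, the kinase that docks checkpoint proteins, fell by 0.52 in AsiSI and 0.32 in Flp-In on the log2 scale, and BUB1B (BubR1) by 0.62 and 0.31. Without Flp-In siMePCE replicate 2 both lost their Flp-In calls (adjusted p = 0.17 for BUB1 and 0.11 for BUB1B), and BUB1B also without Flp-In siNC replicate 1 (0.0645).

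The 4 genes of APC/C activity and sister separation all fell in both lines, with medians of -1.35 in AsiSI and -1.38 in Flp-In. CDC20, the mitotic activator of the APC/C (chromosome 1, 43824652 to 43828874, plus strand, hg19), was at 37.0 and 30.5 CPM in AsiSI siMePCE, against 93.5 and 109 CPM in AsiSI siNC. It was at 54.8 and 44.6 CPM in Flp-In siMePCE, against 150.5 and 156 CPM in Flp-In siNC. No siMePCE library reached a siNC library of either line, and CDC20 had log2 fold changes of -1.59 (SE 0.112, edgeR adjusted p = 1.87e-10) in AsiSI and -1.62 (SE 0.11, adjusted p = 1.09e-10) in Flp-In. UBE2C, the E2 enzyme that charges APC/C substrates, was at 33.3 and 28.5 CPM in AsiSI siMePCE, against 57.8 and 60.6 CPM in AsiSI siNC. It was at 43.95 and 38.0 CPM in Flp-In siMePCE, against 71.4 and 70.6 CPM in Flp-In siNC. UBE2C fell less than CDC20 in fold, by 0.94 in AsiSI and 0.79 in Flp-In on the log2 scale, with no test between the 2 genes. ESPL1 (separase), the protease that opens cohesin, fell by 1.56 and 1.36. PTTG1 (securin), its inhibitor, fell by 1.14 and 1.39.

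At the centromere and kinetochore, 6 of 6 members fell in both lines, with a median of -0.91 in each. SPC25, NUF2 and NDC80 encode subunits of the NDC80 complex, which grips microtubule ends. SPC25 fell by 1.30 in AsiSI and 1.02 in Flp-In on the log2 scale, and NUF2 by 0.80 and 0.74. NDC80 itself was at 99.8 and 76.2 CPM in AsiSI siMePCE, against 129 and 105 CPM in AsiSI siNC. It was at 151 and 133 CPM in Flp-In siMePCE, against 197 and 183 CPM in Flp-In siNC, and it fell less than its partners in fold, by 0.41 and 0.42. Its call was lost in AsiSI without AsiSI siMePCE replicate 2 (adjusted p = 0.144) or AsiSI siNC replicate 1 (0.118), and in Flp-In without Flp-In siMePCE replicate 2 (0.0867). CENPA, the histone that marks centromeres, fell by 0.88 in AsiSI and 1.04 in Flp-In. The kinetochore motor CENPE fell by 1.13 and 0.91, and CENPF, a kinetochore protein of late G2, by 0.94 and 0.91.

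All 9 kinesins among the members fell in both lines, with medians of -1.15 in AsiSI and -0.92 in Flp-In. KIF20A, the midzone kinesin of cytokinesis (chromosome 5, 137514408 to 137523412, plus strand, hg19), was at 26.9 and 19.6 CPM in AsiSI siMePCE, against 100.3 and 91.6 CPM in AsiSI siNC. It was at 36.2 and 27.9 CPM in Flp-In siMePCE, against 123 and 118 CPM in Flp-In siNC. It had the lowest log2 fold change of the 44 in both lines, -2.04 in AsiSI (SE 0.13, edgeR adjusted p = 6.51e-11) and -1.91 in Flp-In (SE 0.128, adjusted p = 1.29e-10). KIF14, which acts with CIT in cytokinesis, fell by 1.53 and 1.54 on the log2 scale. KIF18B, a depolymerase at microtubule tips, fell by 1.39 and 1.2, and KIF2C (MCAK), which corrects wrong attachments, by 1.30 and 0.78. KIF11 (Eg5), which pushes the spindle poles apart, fell by 1.15 and 0.92.

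KIF23, the midzone partner of RACGAP1, fell by 1.01 in AsiSI and 0.96 in Flp-In, and KIF18A, which dampens chromosome movement, by 0.77 and 0.75. KIF20B fell by 0.76 in AsiSI and 0.50 in Flp-In. KIF4A, the chromokinesin that limits midzone length, was at 60.2 and 44.2 CPM in AsiSI siMePCE, against 116 and 101 CPM in AsiSI siNC. It was at 86.2 and 77.7 CPM in Flp-In siMePCE, against 117 and 105 CPM in Flp-In siNC. Between the lines, AsiSI over Flp-In, KIF4A had a log2 fold change of -0.65 under siMePCE (edgeR adjusted p = 0.000138) and -0.03 under siNC (adjusted p = 0.875). After siMePCE its log2 fold changes were -1.06 in AsiSI and -0.44 in Flp-In. The Flp-In call of KIF4A was lost without Flp-In siMePCE replicate 2 (adjusted p = 0.0643) or Flp-In siNC replicate 1 (0.0517).

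The 6 spindle and midzone proteins fell in both lines, with medians of -1.5 in AsiSI and -1.28 in Flp-In. HMMR, a spindle-binding hyaluronan receptor, was at 18.5 and 15.9 CPM in AsiSI siMePCE, against 62.3 and 47.2 CPM in AsiSI siNC. It was at 43.9 and 36.9 CPM in Flp-In siMePCE, against 118 and 109.97 CPM in Flp-In siNC. HMMR fell by 1.67 in AsiSI and 1.5 in Flp-In on the log2 scale, and its antisense neighbour HMMR-AS1 holds 0.549 times its counts. PRC1, which bundles midzone microtubules, fell by 1.54 and 1.44, NUSAP1 by 1.48 and 1.30, and ASPM, which focuses spindle poles, by 1.52 and 1.27. DLGAP5 (HURP), which stabilises kinetochore fibres, fell by 1.09 and 1.00. TPX2, the activator of AURKA, fell least of the 6, by 0.66 in AsiSI and 0.42 in Flp-In.

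The 2 genes of cytokinesis differed from each other. ANLN, the scaffold of the contractile ring, fell by 1.03 in AsiSI and 0.97 in Flp-In on the log2 scale. ECT2, the exchange factor that activates RHOA at the division plane (chromosome 3, 172468472 to 172539264, plus strand, hg19), was at 207 and 181 CPM in AsiSI siMePCE, against 242 and 194 CPM in AsiSI siNC. It was at 84.6 and 77.4 CPM in Flp-In siMePCE, against 87.5 and 80.9 CPM in Flp-In siNC. The siMePCE and siNC libraries of ECT2 overlapped in both lines, and it was the member not called lower in either, with log2 fold changes of -0.16 in AsiSI (SE 0.0989, edgeR adjusted p = 0.204) and -0.06 in Flp-In (SE 0.1, adjusted p = 0.685). Without AsiSI siNC replicate 2 it passed the threshold in AsiSI (log2 fold change -0.31, adjusted p = 0.0139).

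TOP2A, the topoisomerase that untangles sister chromatids (chromosome 17, 38544777 to 38574148, minus strand, hg19), was at 262 and 213 CPM in AsiSI siMePCE, against 735 and 604 CPM in AsiSI siNC. It was at 202 and 165 CPM in Flp-In siMePCE, against 576 and 557 CPM in Flp-In siNC. Its siMePCE libraries were far below its siNC libraries in both lines, by 1.5 in AsiSI (SE 0.109, edgeR adjusted p = 1.02e-09) and 1.63 in Flp-In (SE 0.11, adjusted p = 3.13e-10) on the log2 scale.

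**Figure D3:**
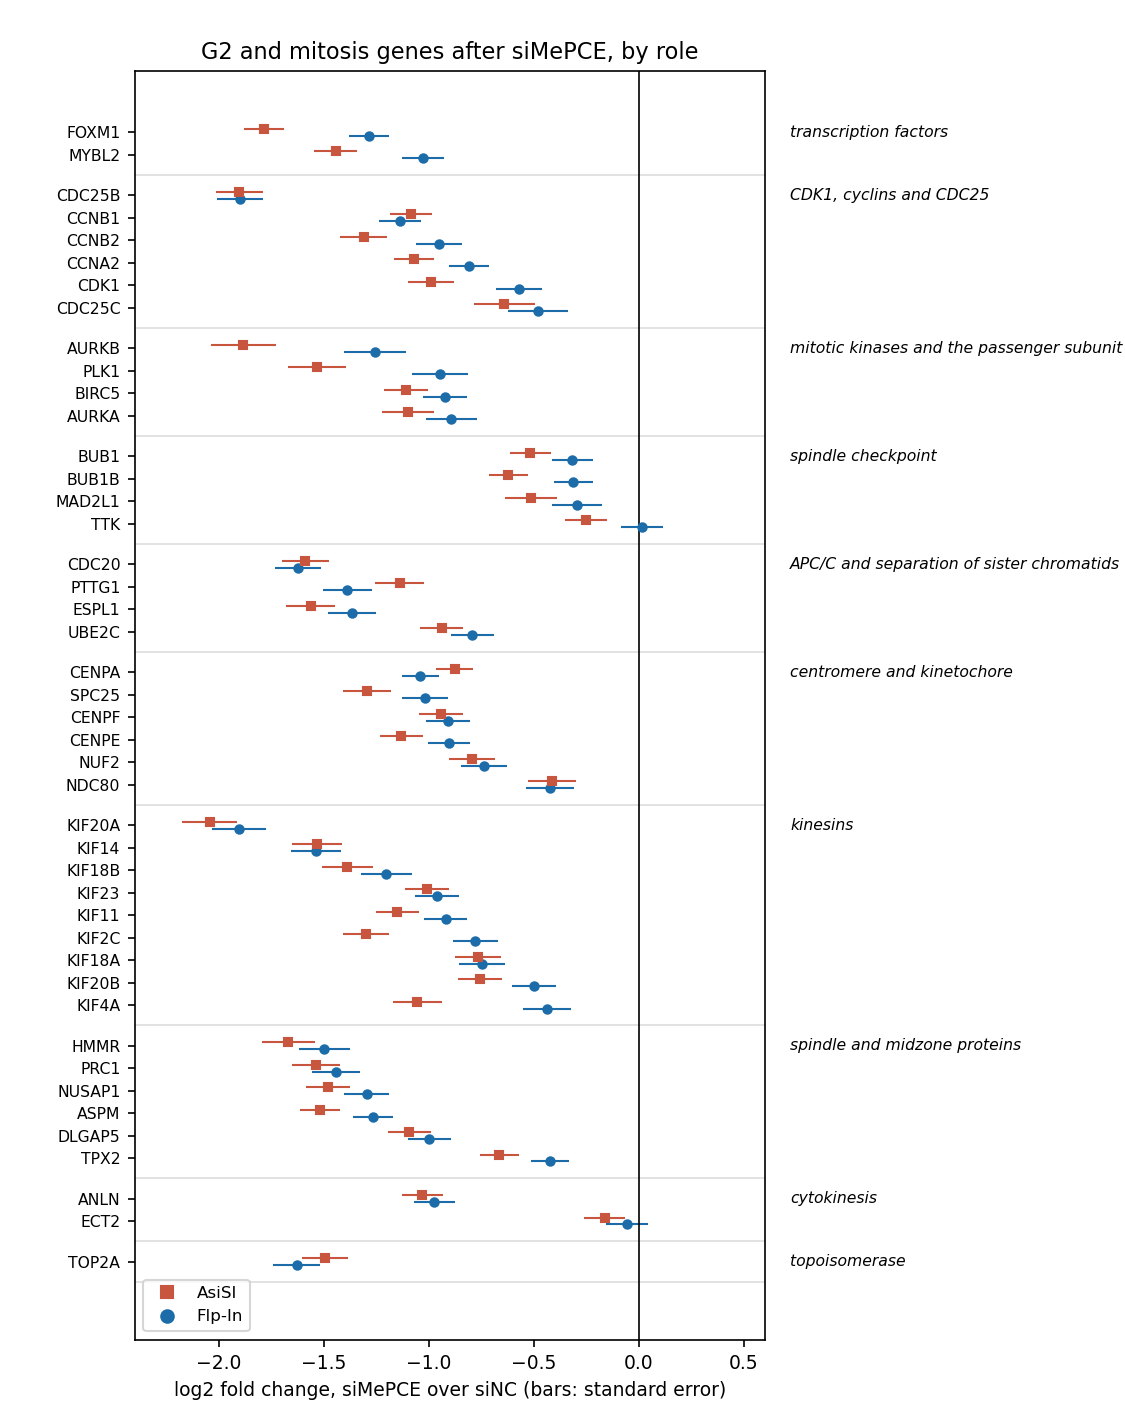
Log2 fold change, siMePCE over siNC (x axis), of the 44 members grouped by role, in AsiSI (squares) and Flp-In (circles), with standard errors as bars. Nearly all points lie left of 0, those of the spindle checkpoint and ECT2 being nearest to it.

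Levels between genes were compared per kilobase of the counted span, which includes introns. Under siNC the members' median was 3.64 CPM per kb in AsiSI and 4.21 in Flp-In. Under siMePCE it was 1.59 CPM per kb in AsiSI and 2.04 in Flp-In. CCNB1 was highest in AsiSI siNC, at 24.3 CPM per kb, and CDC20 in Flp-In siNC, at 36.3. CDC25C was lowest, at 0.323 CPM per kb in AsiSI siNC and 0.508 in Flp-In siNC. Across the 44 members the log2 fold change went with the log2 length of the span (Pearson r = 0.348 in AsiSI and 0.348 in Flp-In; Spearman rho 0.354 and 0.339). The 22 shorter members (4.22 to 34.2 kb) had a median of -1.35 in AsiSI and -1.17 in Flp-In, against -0.91 and -0.83 for the 22 longer ones (36.8 to 131 kb). These are descriptions across genes that share the same libraries.

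The fold changes of the 44 members in the 2 lines, which share no library, had a Pearson r of 0.904 and a Spearman rho of 0.884, across genes that are not independent replicates. The difference of the siMePCE effect between the lines (AsiSI minus Flp-In) was then tested gene by gene. Of the 44 members, 37 had a difference below 0, with a median of -0.18 on the log2 scale. Of the 8496 coding genes in the same range of level, 5656 had a difference below 0, with a median of -0.11. The difference was called for 2 members, both lower in AsiSI, and for 0 higher, where 1.81% of all genes were called lower and 2.6% higher. The 2 are 4.55% of the members, beside 5.76% called lower and 3.53% higher among the coding genes in the same range of level, so the count is near that background. KIF4A had a difference of -0.62 (SE 0.163, edgeR adjusted p = 0.0305) and FOXM1 of -0.50 (SE 0.132, adjusted p = 0.0306). Both have an overlapping gene with at least 0.1 times their counts. Without Flp-In siMePCE replicate 1, either Flp-In siNC replicate or AsiSI siMePCE replicate 2, no member was called. Without Flp-In siMePCE replicate 2 there were 4, without AsiSI siMePCE replicate 1 there were 7, and without AsiSI siNC replicate 1 there was 1. No member's difference was above 0 at an unadjusted edgeR p under 0.05, or called higher by DESeq2 (0 and 0). KIF2C (-0.52, adjusted p = 0.0514), PLK1 (-0.58, adjusted p = 0.0841) and AURKB (-0.63, adjusted p = 0.101) had differences of similar size that missed the threshold.

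**Figure D4:**
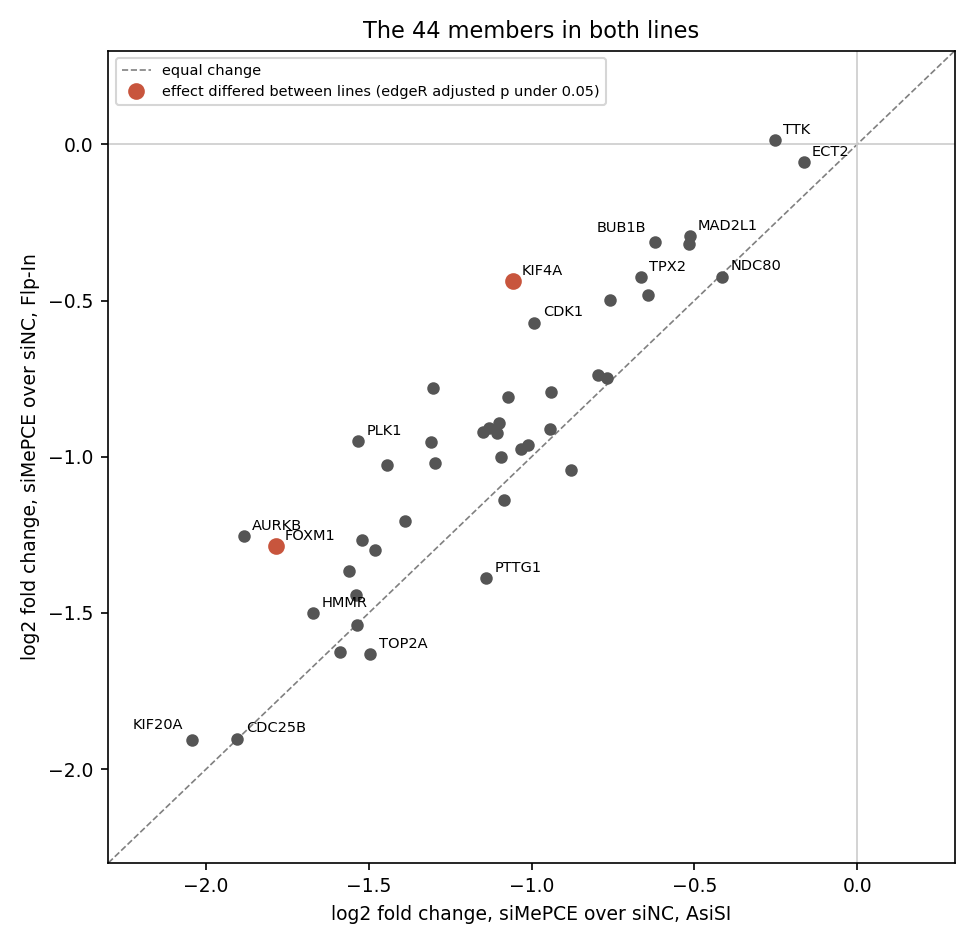
Log2 fold change, siMePCE over siNC, of the 44 members in AsiSI (x axis) and Flp-In (y axis), with the line of equal change. Most points lie above that line, and the 2 members whose difference was called, KIF4A and FOXM1, are marked.

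The lines were also compared directly, AsiSI with 4-OHT against Flp-In, under each siRNA. These contrasts share their libraries with the knockdown contrasts. Under siMePCE, 28 members were called lower in AsiSI and 4 higher, where 16% of all genes were called lower and 15.7% higher, and the members' median log2 fold change was -0.40. Under siNC, 14 were called lower and 4 higher, where 15.2% of all genes were called lower and 14.4% higher, with a median of -0.15. Among the coding genes in the members' range of level, 36.1% were called lower and 18.6% higher under siMePCE, and 24.8% lower and 22.7% higher under siNC. The share of members called higher, 9.09% under each siRNA, was below that of all genes, and the share called lower was 63.6% under siMePCE and 31.8% under siNC. Leaving out AsiSI siMePCE replicate 2 gave 17 lower under siMePCE, as did leaving out Flp-In siMePCE replicate 1. The 4 higher under siMePCE became 2 when AsiSI siMePCE replicate 1 or Flp-In siMePCE replicate 2 was left out, and the 4 under siNC became 2 when AsiSI siNC replicate 1 was left out and 7 when AsiSI siNC replicate 2 was.

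Among members that were called under both siRNAs, HMMR was lower in AsiSI than in Flp-In, with log2 fold changes of -1.23 under siMePCE (edgeR adjusted p = 8.3e-08) and -1.06 under siNC (adjusted p = 3.83e-07). NDC80 had -0.69 and -0.70, CCNA2 -0.84 and -0.58, CENPE -0.81 and -0.58, and MAD2L1 -0.86 and -0.64. CDC20 was lower by 0.56 under siMePCE and 0.59 under siNC. Higher in AsiSI were ECT2, with log2 fold changes of 1.26 under siMePCE (adjusted p = 1.68e-09) and 1.37 under siNC (adjusted p = 4.86e-10), and ANLN, with 0.49 and 0.54. CCNB1 was called higher too, at 0.34 under siMePCE and 0.28 under siNC. Those calls were lost without Flp-In siMePCE replicate 2 (adjusted p = 0.281) or AsiSI siMePCE replicate 1 (0.223) under siMePCE. Under siNC they were lost without AsiSI siNC replicate 1 (0.14) or either Flp-In siNC replicate (0.106 and 0.0717). TOP2A was called higher under siMePCE (0.37), a call lost without AsiSI siMePCE replicate 1 (0.204) or Flp-In siMePCE replicate 2 (0.193). NUSAP1 was called higher under siNC (0.35), a call lost without AsiSI siNC replicate 1 (0.154).

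**Figure D5:**
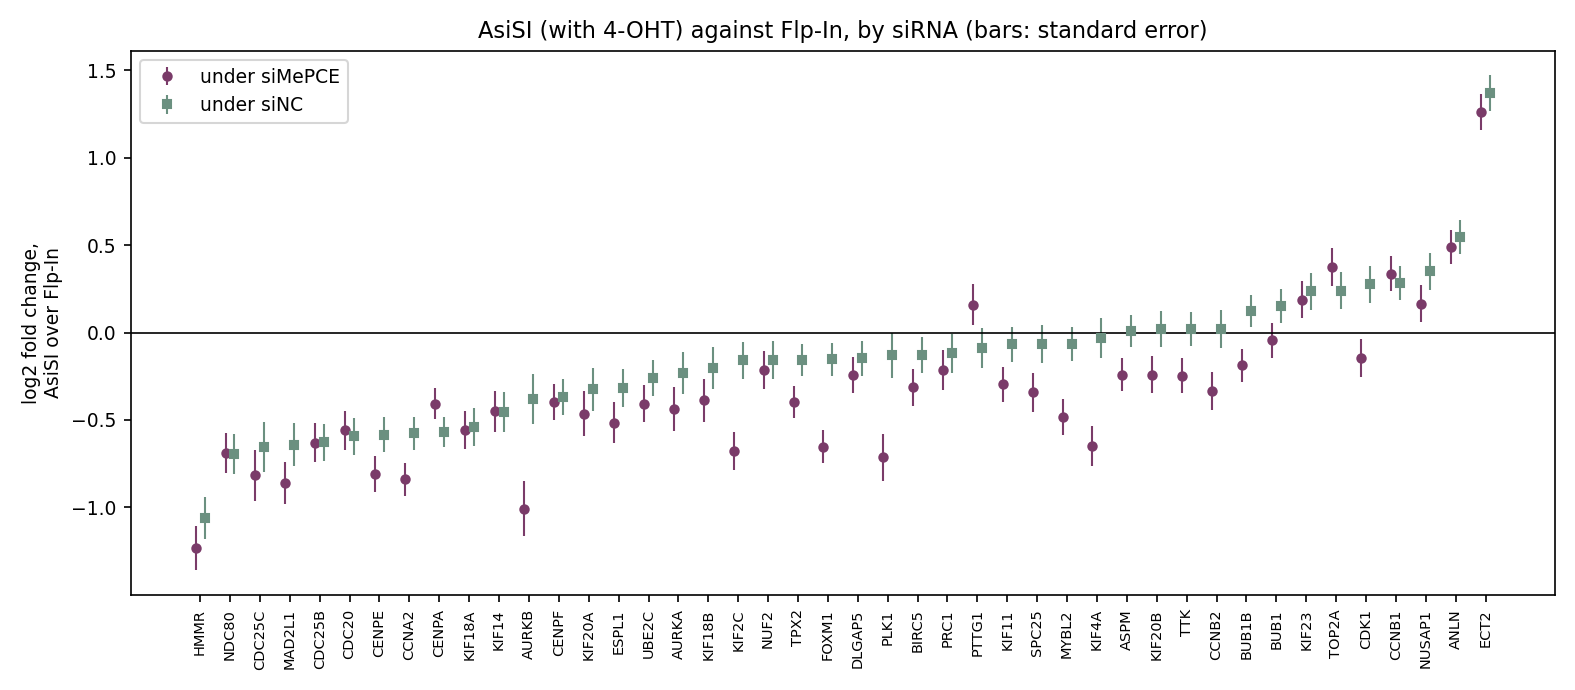
Log2 fold change, AsiSI over Flp-In (y axis), of each of the 44 members under siMePCE (circles) and siNC (squares), with standard errors as bars and members ordered by the siNC value. ECT2 and ANLN are highest and HMMR lowest under both siRNAs, and more members lie below 0 under siMePCE.

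Other genes of the same pathway, from lists that leave out the 44 members, were counted in the same fits. Of all coding genes tested, 35.1% were called lower in AsiSI and 34.3% in Flp-In, and 17.0% and 20.6% were called higher. Of 37 other spindle and cytokinesis genes, 33 fell in AsiSI and 31 in Flp-In and 0 rose by edgeR, by DESeq2 or at an unadjusted p under 0.05, with medians of -0.94 and -0.80. ARHGEF39 (log2 fold changes -2.22 and -2.74), KNSTRN, a kinetochore and spindle protein (-1.71 and -1.63), and PIMREG (-2.76 and -2.23) had the smallest adjusted p-values; overlapping genes hold 0.402 times the counts of ARHGEF39 and 1.23 times those of PIMREG. Of 41 other centromere and kinetochore genes, 30 fell and 2 rose in AsiSI, and 25 fell and 4 rose in Flp-In, with medians of -0.63 and -0.46. The centromere proteins CENPB (-1.74 and -2.21), CENPM (-2.14 and -1.25) and CENPI (-1.55 and -1.38) fell in both lines. CENPQ, a subunit of the constitutive centromere network, rose by 0.75 in AsiSI (edgeR adjusted p = 1.69e-06) and 0.63 in Flp-In (adjusted p = 1.54e-05) on the log2 scale.

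In the lists of chromosome structure and cell cycle control, some genes fell and others rose. Of 22 genes of condensin, cohesin and chromosome structure, 14 fell and 5 rose in AsiSI, and 13 fell and 3 rose in Flp-In, with medians of -0.54 and -0.39. Those that rose were 22.7% of the list in AsiSI and 13.6% in Flp-In, beside 17.0% and 20.6% of all coding genes. MKI67 (Ki-67), which coats mitotic chromosomes, averaged 249 ± 42.9 CPM in AsiSI siMePCE and 784 ± 18.6 CPM in AsiSI siNC (SD, n = 2 each). It averaged 205 ± 36.2 CPM in Flp-In siMePCE and 532 ± 4.58 CPM in Flp-In siNC. The condensin subunit NCAPD2 fell by 1.00 and 0.79 on the log2 scale, and the cohesin subunit SMC1A by 1.23 and 0.90. WAPL, which releases cohesin, rose by 0.24 in AsiSI and 0.41 in Flp-In, the first of these being lost without AsiSI siMePCE replicate 1 (adjusted p = 0.23) or AsiSI siNC replicate 2 (0.0999).

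Of 18 APC/C genes, 13 fell and 2 rose in AsiSI, and 9 fell and 4 rose in Flp-In, with medians of -0.62 and -0.31. Those that rose were 11.1% of the list in AsiSI and 22.2% in Flp-In, beside 17.0% and 20.6% of all coding genes. FBXO5 (EMI1), an APC/C inhibitor, fell by 1.51 and 1.32 on the log2 scale, and the subunit ANAPC7 by 0.94 and 0.72. UBE2D1, an E2 enzyme that can act with the APC/C, rose by 0.46 in AsiSI and 0.81 in Flp-In. Of 21 entry kinases, phosphatases and CDK partners, 12 fell and 4 rose in AsiSI, and 10 fell and 4 rose in Flp-In, with medians of -0.47 and -0.29. The rises were 19% of this list in each line, near the shares of all coding genes. CDKN3, a phosphatase that acts on CDKs, averaged 27.6 ± 3.94 CPM in AsiSI siMePCE and 108 ± 8.21 CPM in AsiSI siNC. It averaged 28.1 ± 0.499 CPM in Flp-In siMePCE and 118 ± 5.27 CPM in Flp-In siNC, so that its log2 fold changes of -1.96 and -2.08 were as low as those of the lowest members. PKMYT1, the kinase that inhibits CDK1, fell by 2.29 and 2.04, and CCNF by 1.71 and 1.33.

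Of the 18 genes of DREAM, MuvB, NF-Y and p53 control, 8 fell and 1 rose in AsiSI, and 7 fell and 2 rose in Flp-In, with medians of -0.25 and -0.13. Those called lower are 44.4% of the list in AsiSI and 38.9% in Flp-In, near the 43.6% and 37.6% of coding genes in the members' range of level. TFDP1, the dimer partner of E2F factors, averaged 20.8 ± 3.16 CPM in AsiSI siMePCE and 115 ± 3.23 CPM in AsiSI siNC. It averaged 24.98 ± 2.60 CPM in Flp-In siMePCE and 121 ± 2.90 CPM in Flp-In siNC, with log2 fold changes of -2.47 (edgeR adjusted p = 1.64e-13) and -2.27 (adjusted p = 4.01e-13). E2F4, the E2F of DREAM, fell by 1.46 and 1.31 on the log2 scale, while NFYA, a subunit of NF-Y, had log2 fold changes of 0.03 in AsiSI (adjusted p = 0.833) and 0.46 in Flp-In (adjusted p = 0.000274). CDKN1A (p21), the CDK inhibitor through which p53 acts on DREAM, was at 217 and 216 CPM in AsiSI siMePCE, against 190 and 193 CPM in AsiSI siNC. It was at 104 and 88.8 CPM in Flp-In siMePCE, against 80.2 and 85.4 CPM in Flp-In siNC. Its log2 fold changes were 0.18 in AsiSI (adjusted p = 0.108) and 0.22 in Flp-In (adjusted p = 0.0474), and the AsiSI value passed the threshold with library totals (0.21, adjusted p = 0.027) and with a filter at a mean CPM of 1 (0.31, adjusted p = 0.00192). The Flp-In call was lost when any counted gene was tested (adjusted p = 0.138), without Flp-In siMePCE replicate 1 (0.545), either Flp-In siNC replicate (0.332 and 0.0951), either AsiSI siMePCE replicate (0.0641 and 0.0579) or AsiSI siNC replicate 1 (0.057).

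The earlier phases of the cycle moved too. Of 36 genes of the G1/S transition and DNA replication, 32 fell in AsiSI and 29 in Flp-In and 0 rose by edgeR, by DESeq2 or at an unadjusted p under 0.05, with medians of -0.84 and -0.74. RRM2, a subunit of ribonucleotide reductase, fell by 1.96 in AsiSI and 1.79 in Flp-In on the log2 scale, MCM7, of the replicative helicase, by 1.93 and 1.87, and UHRF1, which maintains DNA methylation, by 1.97 and 1.67. Among the genes of these lists, overlapping genes also hold 0.334 times the counts of NCAPD2, 0.348 times those of FBXO5, 1.45 times those of ANAPC7, 0.45 times those of PKMYT1, 0.587 times those of CCNF, 0.875 times those of NFYA and 0.311 times those of MCM7. The medians of these 36 genes lay nearer 0 than those of the 44 members in both lines, with no test between the lists.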

How the data were processed

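Total RNA was sequenced after removal of ribosomal RNA with a directional kit, per the labels' protocols. The authors deposited raw counts per gene for 80311 genes on hg19, and featureCounts, STAR, SAMtools, FastQC and Trim Galore are listed in the submitters' processing notes with no versions. In every row the listed length equals the span from start to end, so introns were counted. In 3520 of 3520 same-strand and 6889 of 6889 opposite-strand pairs the inner gene stayed at or below the outer one, as when every overlapping gene receives a read; the counting setting is not given in the sources used here.

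The members and lists were chosen with earlier results of these data known. Counts were filtered with filterByExpr by group, TMM-scaled, and modelled by group across the 8 libraries with edgeR 4.0.16 (robust quasi-likelihood) in R 4.3.3. SE is the fold change on the log2 scale over the root of F. The common biological coefficient of variation was 0.121. Replicates differed beyond sampling noise (chi-square per degree of freedom 4.51 to 11.3), so none was a copy. DESeq2 1.42.0, other scalings and filters, a replicate block, a fold threshold of 1.5, fits of only the libraries compared, members without overlapping genes, and leaving out each library were tried. Members in every library were named by role, by extreme fold change or by a missed or differing call; of each list, at most 3 genes by smallest adjusted p and 3 that moved the other way. Promoter letters came from RefSeq (GRCh38.p14). Genes that share an overlapping stretch cannot be told apart. Symbols matched to the deposited gene identifiers from a separate list covered 74.29% of rows.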

Additional observations from a re-analysis of the deposited data

Results flagged for a closer look

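The siMePCE effect differed between the lines for 2 of the 44 members by the test of the difference itself, 4.55% of them, beside 5.76% called lower among coding genes in the members' range of level. KIF4A had a log2 difference, AsiSI minus Flp-In, of -0.6176 (SE 0.163, edgeR adjusted p = 0.0305), from log2 fold changes of -1.06 in AsiSI and -0.44 in Flp-In. FOXM1 had a difference of -0.4994 (SE 0.132, adjusted p = 0.0306), from -1.78 in AsiSI and -1.29 in Flp-In. The call of KIF4A was lost without AsiSI siMePCE replicate 2 (adjusted p = 0.139), AsiSI siNC replicate 1 (0.107), Flp-In siMePCE replicate 1 (0.16), Flp-In siNC replicate 1 (0.0655) or Flp-In siNC replicate 2 (0.151). The call of FOXM1 was lost without AsiSI siMePCE replicate 2 (adjusted p = 0.126), AsiSI siNC replicate 2 (0.0818), Flp-In siMePCE replicate 1 (0.209), Flp-In siNC replicate 1 (0.137) or Flp-In siNC replicate 2 (0.0703). Both were called with DESeq2 (adjusted p = 0.0126 for KIF4A and 0.0109 for FOXM1). In both, the cell line and 4-OHT cannot be told apart.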

How the results depend on the processing

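The members' median kept its direction under every alternative tried for the knockdown contrasts, and no called value changed sign. The uncalled value of TTK in Flp-In (0.01) was -0.01 when any counted gene was tested, -0.07 when Flp-In siMePCE replicate 1 was left out and -0.06 when it was Flp-In siNC replicate 2. That of ECT2 there (-0.06) was 0.03 with a filter at a mean CPM of 1 and just above 0 when Flp-In siMePCE replicate 2 was left out. Without 1 library at a time, 40 to 44 members were called lower in AsiSI (median -1.28 to -0.999) and 36 to 42 in Flp-In (median -1.08 to -0.84). Of the 43 AsiSI calls 40 were kept without each library, and of the 41 Flp-In calls 36. Among the 26 members without a large overlapping gene, 25 were lower in AsiSI and 23 in Flp-In, 0 in the difference, 17 for AsiSI against Flp-In under siMePCE and 9 under siNC. The difference between lines gave 5 members lower when any counted gene was tested, 4 with DESeq2, 0 at a fold threshold of 1.5 and 0 to 7 without 1 library. AsiSI against Flp-In at that threshold gave 5 lower and 1 higher under siMePCE and 1 lower and 1 higher under siNC; without 1 library it gave 17 to 33 lower and 2 to 5 higher under siMePCE, and 10 to 16 lower and 2 to 7 higher under siNC. Under siNC, 7 were higher with a filter at a mean CPM of 1 and 7 when only the libraries compared were fitted. With a replicate block the difference gave 7 lower, AsiSI against Flp-In 35 lower under siMePCE (28 without it) and 7 higher under siNC. The block changed MAD2L1 in Flp-In (edgeR adjusted p = 0.00889) and no other member call after siMePCE. Deviations of same-numbered libraries were correlated for each of the 6 pairs of groups. The correlations were 0.217 (AsiSI siMePCE and AsiSI siNC), 0.0732 (Flp-In siMePCE and Flp-In siNC) and 0.232 (both siMePCE groups). They were 0.192 (both siNC groups), 0.113 (AsiSI siMePCE and Flp-In siNC) and 0.0424 (Flp-In siMePCE and AsiSI siNC). All 6 were above 0. The labels state no pairing, and whether same-numbered libraries share an origin was not tested. Beyond the fewer members or libraries that some alternatives leave, the cause was not tested. In the DREAM and p53 list, 2 genes rose in Flp-In with edgeR and 4 with DESeq2. Scalings moved the median of all genes by at most 0.0447 on the log2 scale. A filter at a mean CPM of 1 moved the members' median further than the scalings did. It went from -1.10 to -0.975 in AsiSI and from -0.951 to -0.866 in Flp-In. With 2 libraries a group, a missed threshold does not show that a member did not change.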

Other observations

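ECT2 was not alone on chromosome 3 in its higher level in AsiSI. FNDC3B, 711.1 kb from ECT2, was at 370 and 398 CPM in AsiSI siMePCE, against 143 and 137 CPM in Flp-In siMePCE. Under siNC it was at 252 and 243 CPM in AsiSI, against 88.4 and 85.7 CPM in Flp-In, a log2 fold change of 1.51 (edgeR adjusted p = 2.14e-12). NCEH1, 120 kb from ECT2, had log2 fold changes, AsiSI over Flp-In, of 1.39 under siMePCE and 1.75 under siNC, and NAALADL2, at 1688 kb, of 1.80 and 2.11. GHSR, TNFSF10, SPATA16 and TMEM212, all nearer than NAALADL2 and at most 12.5 CPM in any library, were also higher in AsiSI under both siRNAs. NLGN1, which lies between NCEH1 and NAALADL2 at 646 kb, had -0.12 (edgeR adjusted p = 0.366) and 0.22 (adjusted p = 0.073). TBL1XR1, at 4269 kb, was lower in AsiSI by 0.47 and 0.42. KCNMB2, farther out at 5522 kb, was again higher in AsiSI, with log2 fold changes of 2.08 and 1.24. ECT2 had 1.26 and 1.37. These neighbours were chosen after their values were seen, and DNA was not measured in these samples.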
